A study of Homo sapiens with 171 samples.

Results

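UWB1.289, PEO1 and JHOS-2 are established ovarian cancer cell lines known to carry a mutation in a BRCA gene, BRCA1 in UWB1.289 and JHOS-2 and BRCA2 in PEO1. They are 3 of the 46 ovarian cancer lines of the series and hold 6 of its 171 arrays. The lines were chosen by that known mutation status and by no measured value. The sample labels do not give the status, and expression arrays cannot show a mutation. Each line was cultured with cisplatin for 48 h at its own GI50 concentration or left untreated, and each arm had 1 array, cisplatin and untreated both in the same batch. PEO1 and JHOS-2 were in batch 4 and UWB1.289 was in batch 5. They were set beside the 25 other lines of those batches that also had a single pair of arrays, 9 in batch 4 and 16 in batch 5. The BRCA status of these 25 lines was not assigned, so some of them may also carry such a mutation. Doses were set per line to a common effect, and their concentrations are not used here. The p-values measure the spread between lines, since no line had a replicate of its own. Each limma SE and p-value used a residual spread per gene that was pooled over all lines of the fit. With 28 lines, 25 of them others, the SE of a mean of the 3 lines reflects mostly the spread of the other lines. That SE does not show how alike the 3 lines were, which is seen from their separate values.

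Cisplatin binds DNA and links neighbouring bases within a strand or across both strands. Links across the strands block replication forks, and cells remove them through the Fanconi anaemia pathway, nucleotide excision, translesion synthesis and homologous recombination. BRCA1 promotes resection of broken ends, and BRCA2 loads the recombinase on the resulting single-stranded DNA, so cells without either protein repair such breaks poorly and are known for platinum sensitivity. DNA lesions also stop RNA polymerase, and long genes present more template to a moving polymerase.

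Array medians over genes lay between 5.14 and 5.19 log2 units in the 6 arrays of the BRCA-mutant lines, so a value near 5.2 marks the middle gene of an array. The cisplatin array of each of the 3 lines correlated best with the untreated array of its own line among the untreated arrays of its batch, with r of 0.969 in UWB1.289, 0.974 in PEO1 and 0.980 in JHOS-2 across 18417 genes. The epithelial marker EPCAM was at 11.73, 11.34 and 11.47 log2 units in untreated UWB1.289, PEO1 and JHOS-2. PAX8, a transcription factor of Müllerian epithelium, was at 8.50, 7.42 and 7.56 log2 units in the same arrays. Of 22 markers of serous ovarian carcinoma and epithelium, 17, 19 and 19 were above the array median in these arrays, and WT1 was below it in UWB1.289, at 4.49. None of 14 leukocyte markers was above the array median in any of the 3 untreated arrays (0), and their median level was 3.84, 3.68 and 3.68 log2 units with cisplatin, against 3.75, 3.43 and 3.50 untreated. Of 11 endothelial markers 4, 2 and 2 were above it, among them ERG, a transcription factor, at 4.56 log2 units in treated UWB1.289 against 6.6 untreated. The part of such genes in the results was not tested.

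The promoters of DUSP1 and PPP1R15A are shown because both genes were at least 2-fold higher in all 3 lines and both stretches hold the cAMP response element TGACGTCA, printed in capitals. DUSP1 encodes a phosphatase that switches off MAP kinases, and PPP1R15A (GADD34) encodes the phosphatase subunit that restores translation after stress. The lines below give the 250 bases before each RefSeq gene start, 5′ to 3′ on the strand of the gene, in GRCh38.p14. The DUSP1 stretch is chr5:172771196-172771445 on the minus strand and the PPP1R15A stretch is chr19:48872171-48872420 on the plus strand.
DUSP1: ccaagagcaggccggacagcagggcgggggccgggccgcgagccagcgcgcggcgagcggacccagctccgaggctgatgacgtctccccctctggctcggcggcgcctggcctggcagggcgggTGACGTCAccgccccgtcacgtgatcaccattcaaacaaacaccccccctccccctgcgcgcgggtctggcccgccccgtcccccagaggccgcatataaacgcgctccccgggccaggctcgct
PPP1R15A: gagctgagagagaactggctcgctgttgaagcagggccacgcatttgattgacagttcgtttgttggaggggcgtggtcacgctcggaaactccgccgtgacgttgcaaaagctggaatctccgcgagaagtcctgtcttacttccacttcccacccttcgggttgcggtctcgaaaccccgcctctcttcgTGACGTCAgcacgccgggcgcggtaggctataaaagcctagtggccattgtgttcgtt
The element reads the same on both strands. It starts 125 bases before the start of DUSP1 and 58 bases before that of PPP1R15A. It was present in 2 of the 14 measured immediate early genes with a promoter in the table, and in 2.37% of the 14239 measured genes with one. Both genes were chosen after their values were seen, and a match is a description of the letters, not of binding.

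DUSP1 was at 7.22, 7.84 and 8.01 log2 units in cisplatin-treated UWB1.289, PEO1 and JHOS-2, against 5.86, 6.30 and 6.70 log2 units in the untreated arrays. PPP1R15A was at 7.29, 8.30 and 7.05 log2 units with cisplatin, against 6.07, 6.0 and 6.0 log2 units untreated. All 3 treated arrays were above all 3 untreated arrays for both genes. The mean change over the 3 lines was 1.40 ± 0.37 log2 units for DUSP1 and 1.52 ± 0.41 for PPP1R15A (SE of the fit). Neither passed the limma test over all genes, with adjusted p of 0.101 and 0.104. In the 25 other lines the mean change was 0.62 log2 units for DUSP1 and 0.83 for PPP1R15A, with adjusted p of 0.00692 and 0.00146 by limma.

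The number of genes that moved at least 2-fold differed between the 3 lines. UWB1.289 had 188 genes higher (1.02% of 18417) and 794 lower (4.31%), 5.33% in all. PEO1 had 545 higher (2.96%) and 387 lower (2.1%), 5.06% in all. JHOS-2 had 174 higher (0.945%) and 253 lower (1.37%), 2.32% in all. Lower genes outnumbered higher ones in UWB1.289 and JHOS-2, and higher ones outnumbered lower ones in PEO1. In order from the largest count among the 28 lines, UWB1.289 was at rank 8, PEO1 at 9 and JHOS-2 at 16, and PEO1 had the most such genes in batch 4. The other 25 lines had a median of 484 genes, with a lowest of 123 and a highest of 6955 in Hey, a line whose cisplatin array also correlated least with its untreated array (r = 0.835). Between replicate cultures of 1 line and arm in batches 1 to 3, a median of 36.5 genes differed 2-fold over 106 pairs, with a range of 5 to 1155. The mean count was 780 ± 307 in the BRCA-mutant lines and 884 ± 1371 in the other lines (SD, n = 3 and 25). Averaged over the 3 lines, the BRCA-mutant lines had 139 genes more than the other lines of their batch, so batch 4 with its 2 lines weighed more. This difference did not pass an exact two-sided permutation test of the line labels within batch (p = 0.695, 935 assignments). The batches differed in direction, with 301 more in batch 4 and a difference of -186 in batch 5. Without Hey, whose count enters the mean of the other lines, the difference was 267 (exact permutation p = 0.294), with 301 in batch 4 and 199.9 in batch 5. The share of 2-fold genes that were higher was 19.1% in UWB1.289, 58.5% in PEO1 and 40.7% in JHOS-2, with a median of 55.2% in the other lines. This share too was not separated by the exact permutation test (p = 0.117).

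**Figure D1:**
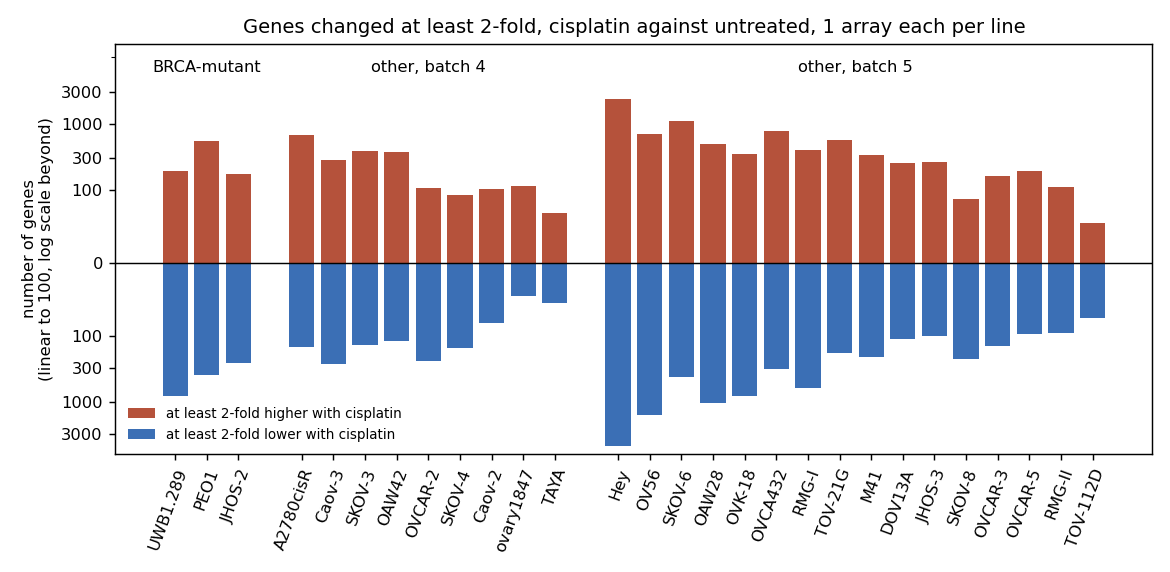
Number of genes at least 2-fold higher (upward bars) or lower (downward bars) with cisplatin in each line, on an axis that is linear to 100 and logarithmic beyond, for the 3 BRCA-mutant lines and the other lines of batches 4 and 5. UWB1.289 has 794 genes lower against 188 higher, while PEO1 has 545 higher against 387 lower.

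Few of these genes were common to the 3 lines. At least 2-fold rises shared by all 3 lines were found for 8 genes (0.0434% of all genes), namely ZNF670, PPP1R15A, NEXN, DUSP1, SLC10A5, BAMBI, TEX30 and a gene of a small nucleolar RNA. BAMBI encodes a decoy receptor of the TGF-beta family and NEXN an actin-binding protein. Falls of at least 2-fold in all 3 lines were found for 25 genes (0.136%). UWB1.289 and PEO1 shared 153 such falls, which were 19.3% of those in UWB1.289 and 39.5% of those in PEO1. PEO1 and JHOS-2 shared 58 rises, 10.6% of those in PEO1 and 33.3% of those in JHOS-2. A further 32 genes were 2-fold higher in 1 of the lines and 2-fold lower in another. Across 18417 genes the changes of UWB1.289 and PEO1 correlated with r = 0.316, those of PEO1 and JHOS-2 with r = 0.310 and those of UWB1.289 and JHOS-2 with r = 0.232. The change of UWB1.289 was most like that of OAW28 (r = 0.507) and that of PEO1 most like that of Caov-3 (r = 0.539), both among the other lines, and that of JHOS-2 most like that of PEO1. These are descriptions across genes, which are not independent, and PEO1, JHOS-2 and Caov-3 share a batch.

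The mean cisplatin change of the 3 lines passed the limma threshold (adjusted p of 0.05 over 18417 genes) for 47 genes, 0.255% of those tested. Of these, 9 rose (0.0489%) and 38 fell (0.206%). All 47 had the same sign in all 3 lines, where 18.7% of all genes were higher and 16.3% lower in all 3. Genes chosen by a large mean tend to share a sign, so this is no separate support. The change of ZNF582 in UWB1.289 was only 0.01 log2 units. By the same fit 469 genes (2.55%) passed for the mean of the 25 other lines, 234 higher (1.27%) and 235 lower (1.28%), and 16 of the 47 were among them. The counts are not comparable as sizes of a response, since 3 lines and 25 lines were averaged. Without PEO1 10 genes passed, all of them lower and 8 of them among the 47. Without UWB1.289 14 passed, 8 higher and 6 lower, 10 of them among the 47. Without JHOS-2 41 passed, 26 of them among the 47. Leaving out Hey, a choice made after the data were seen, gave 111 genes.

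The 9 genes that rose were IL1RL1, GMFG, KCNV1 and 6 zinc-finger genes. ZNF670, ZNF829, ZNF570, ZNF567 and ZNF582 encode zinc-finger proteins, most members of that large family being repressors of transcription, and ZNF542P is a pseudogene of the family. ZNF670 was at 8.14, 7.69 and 6.66 log2 units in treated UWB1.289, PEO1 and JHOS-2, against 6.36, 5.76 and 5.44 log2 units untreated. Its mean change was 1.64 ± 0.35 log2 units (SE, limma adjusted p = 0.0286), and in the other lines it was 0.58 (adjusted p = 0.00692). ZNF542P was at 7.51, 6.71 and 5.79 log2 units with cisplatin, against 6.07, 5.19 and 4.91 untreated, a mean change of 1.28 ± 0.24 (limma adjusted p = 0.0141). Levels of both were higher with cisplatin in each of the 3 lines. ZNF829 changed by 0.43 log2 units in UWB1.289, 2.50 in PEO1 and 1.61 in JHOS-2, and ZNF582 by 0.01, 1.27 and 1.69. ZNF582 thus moved in the 2 lines of batch 4 and not in UWB1.289. Members of the family resemble each other closely, so probes may bind more than 1 of them, and single values of these genes are uncertain.

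Among all 495 measured genes with names starting with ZNF, 6 rose in the mean of the 3 lines and 0 fell by limma, and 46 rose and 1 fell in the mean of the other lines. Over all genes 0.0489% rose and 0.206% fell in the mean of the 3 lines, against 1.27% and 1.28% in the other lines. The median change of the family was 0.14 log2 units in UWB1.289, 0.43 in PEO1 and 0.12 in JHOS-2, against 0.09 in the median other line (range -0.06 to 0.23). PEO1 was the highest of the 28 lines on this measure, with 87 members at least 2-fold higher and 2 lower (2.96% and 2.1% of all genes). For the 237 members on chromosome 19, where the family is clustered, the medians were 0.18, 0.60 and 0.14 log2 units in UWB1.289, PEO1 and JHOS-2. Over all genes the medians were 0.06, -0.01 and 0.01 in the same order. This family was singled out after the values were seen, and no test was made of it.

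GMFG, an actin-remodelling factor best known from leukocytes, was at 4.07, 5.55 and 5.49 log2 units with cisplatin in UWB1.289, PEO1 and JHOS-2, against 3.46, 3.84 and 3.99 untreated. Its mean change was 1.27 ± 0.25 log2 units (SE, limma adjusted p = 0.0160). KCNV1, a modifier subunit of voltage-gated potassium channels, rose by 0.65, 1.00 and 0.71 log2 units, a mean of 0.79 ± 0.18 (limma adjusted p = 0.0472). The 3 changes of KCNV1 were all above the largest of the other lines, which was 0.62, that of UWB1.289 narrowly. The gene was chosen by its change in these lines, so the lack of overlap is in part built in. The difference between the groups, 0.74 log2 units, was nevertheless short of the threshold (limma adjusted p = 0.435). With each line centred on its median change, its mean change no longer passed (limma adjusted p = 0.0695).

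The 38 genes that fell had a median change of -1.52 log2 units, with a range of -2.45 to -0.89. They included genes for membrane and adhesion proteins, among them GPC6, a cell-surface heparan sulphate proteoglycan, CDH6, a cadherin of kidney and ovarian tumours, SLC8A1, a sodium-calcium exchanger, and CACNA2D1, a calcium channel subunit. CDH6 was at 8.86, 8.2 and 9.08 log2 units in treated UWB1.289, PEO1 and JHOS-2, against 10.68, 10.96 and 10.45 untreated. Every treated array was thus below every untreated one, and CDH6 stayed well above the array median. Its mean change was -1.98 ± 0.39 log2 units (SE, limma adjusted p = 0.0162), and the other lines had a mean of -0.34 (adjusted p = 0.187). The difference between the groups, -1.59, was short of the threshold (limma adjusted p = 0.435). Untreated, CDH6 had a median of 6.31 log2 units in the other lines (3.24 to 11.80). SLC8A1 was at 4.45, 4.44 and 4.49 log2 units with cisplatin, against 7.14, 6.03 and 6.94 untreated, so the treated arrays lay within 4.44 to 4.49 in all 3 lines. DEPTOR, an inhibitor of the mTOR kinase, was at 6.24, 4.16 and 4.76 log2 units with cisplatin, against 9.27, 5.61 and 6.31 untreated, a mean change of -2.01 ± 0.40 (limma adjusted p = 0.0171). BBS9, a subunit of the ciliary BBSome, fell by 2.41, 3.12 and 1.58 log2 units in UWB1.289, PEO1 and JHOS-2, and by 1.02 in the mean of the other lines (limma adjusted p = 0.000565).

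**Figure D2:**
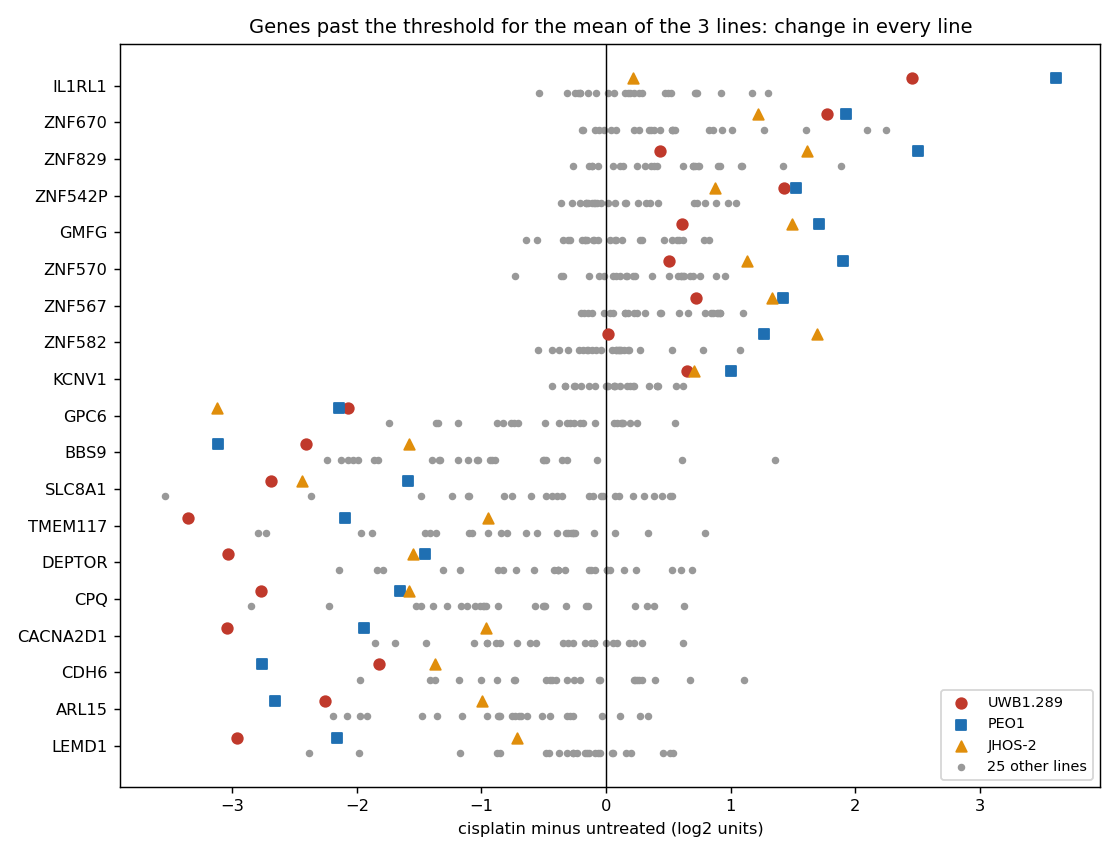
Cisplatin minus untreated in log2 units for the 9 genes that rose and the 10 genes with the largest fall in the mean of the BRCA-mutant lines; coloured symbols are the 3 lines and grey points the 25 other lines. KCNV1, chosen by its mean change in these lines, lies above every other line in all 3. Its difference between the groups did not pass the threshold. IL1RL1 is at 0.22 in JHOS-2, within the spread of the other lines.

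Of these 38 genes, 36 also had a negative mean change in the other lines and 13 of them passed the threshold there. Their median change in the other lines was -0.29 log2 units. Before treatment all 38 were at a higher mean level in the BRCA-mutant lines than in the others, by a median of 1.16 log2 units, and for FAT3 and NEGR1 that difference passed its own limma test. The untreated array enters both the level and the change, so the 2 measures are not independent, and a level near the floor of the array leaves little room for a fall. A higher untreated level is thus in part built into the choice of genes that fell, and is no separate result. The 9 genes that rose had a median change of 0.26 log2 units in the other lines.

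Leaving out 1 of the 3 lines at a time, GPC6 was the 1 gene of the 19 named here (9 higher, 10 lower) that stayed past the threshold in every case. Without PEO1 it was the only 1 of the 19. Without JHOS-2, 10 of the 19 passed, and without UWB1.289, 6 passed, namely GPC6, GMFG, ZNF567, ZNF570, ZNF582 and ZNF829.

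Long genes were frequent among the genes that fell. Of the 38, 23 span more than 200 kb in the RefSeq annotation, a length reached by 7.12% of the 18389 genes with a known length, and their median length was 368622 bases against 24474 for all genes. Among genes above the median of the untreated array, those longer than 600 kb changed by a median of -1.71 log2 units in UWB1.289 (75 genes), -0.85 in PEO1 (59) and -0.59 in JHOS-2 (63), against a median of -0.36 in the other lines (range -2.09 to 0.22). UWB1.289 was the second lowest of the 28 lines, PEO1 the 7th and JHOS-2 the 11th. Genes shorter than 30 kb changed by 0.15, -0.01 and 0.02 in the same lines. In UWB1.289, 73.3% of the genes over 600 kb were at least 2-fold lower, against 37.3% in PEO1, 19% in JHOS-2 and 12.5% in the median other line. Above 30 kb all 3 lines thus had lower medians with greater length, UWB1.289 was the lowest of the 3 above 100 kb, and each lay within the range of the other lines.

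**Figure D3:**
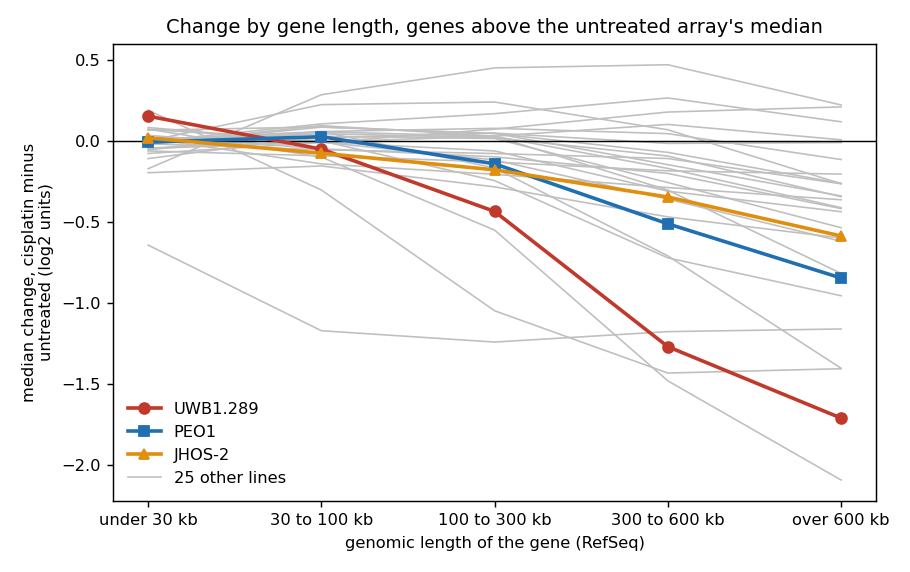
Median cisplatin change in log2 units by genomic length of the gene for each line, over genes above the median of the untreated array; coloured lines are the BRCA-mutant lines and grey lines the 25 others. The median for genes over 600 kb is -1.71 in UWB1.289, -0.85 in PEO1 and -0.59 in JHOS-2.

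In a list of 27 long genes, chosen with earlier results of these data known and so no independent support, 6 fell in the mean of the 3 lines and 0 rose by limma, while 15 fell in the other lines. Over all genes 0.206% fell in the mean of the 3 lines and 1.28% in that of the other lines. Since 3 and 25 lines were averaged, the counts of 6 and 15 are not comparable in size. EXOC4, an exocyst subunit, fell by 2.39, 1.83 and 0.79 log2 units in UWB1.289, PEO1 and JHOS-2. ARL15, a small GTPase, was at 3.92, 4.09 and 6.38 log2 units with cisplatin, against 6.17, 6.75 and 7.38 untreated (mean change -1.97 ± 0.39, limma adjusted p = 0.0171). CPQ, a carboxypeptidase, changed by -2.77, -1.66 and -1.58. The fall in these genes was largest in UWB1.289 for CPQ and EXOC4 and in PEO1 for ARL15.

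The difference of the cisplatin change, BRCA-mutant minus other lines, passed the limma threshold for 5 of 18417 genes (0.0271%). By the same limma test 820 genes (4.45%) had an unadjusted p under 0.05, a share no larger than that threshold itself. The change of IL1RL1 was higher in the BRCA-mutant lines (1 gene, 0.00543%), and those of GPC6, ST8SIA6, GNAO1 and SLC2A12 were lower (4 genes, 0.0217%).

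IL1RL1 encodes ST2, the receptor of the cytokine IL-33. It was at 6.19, 6.90 and 3.00 log2 units in treated UWB1.289, PEO1 and JHOS-2, against 3.73, 3.29 and 2.79 untreated, and in the other lines it had a median of 2.73 with cisplatin (2.23 to 5.15) and 2.67 untreated (2.38 to 4.42). It thus rose above every other line in UWB1.289 and PEO1, and its change of 0.22 in JHOS-2 ranked 15 of 28. The difference was 1.95 ± 0.38 log2 units (SE, limma adjusted p = 0.0457), 1.87 within batch 4 and 2.08 within batch 5. Without UWB1.289 the difference was 1.87 (limma adjusted p = 0.641), and without PEO1 it was 1.15, also short of the threshold. With each line centred on its median change it was 1.92 (limma adjusted p = 0.0582).

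GPC6 was at 3.65, 3.46 and 4.35 log2 units in treated UWB1.289, PEO1 and JHOS-2, against 5.72, 5.60 and 7.48 untreated. The other lines had a median of 3.31 with cisplatin (2.72 to 6.16) and 3.48 untreated (2.91 to 6.69). Untreated JHOS-2 was thus above all other lines, and the treated arrays of UWB1.289 and PEO1 lay close to the median of the other lines. The mean change of the 3 lines was -2.45 ± 0.32, with treated levels below the array median, where the size of a fall can be understated, and the difference from the other lines was -2.05 ± 0.35 log2 units (SE, limma adjusted p = 0.0102), -2.30 within batch 4 and -1.62 within batch 5.

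ST8SIA6, a sialyltransferase of the cell surface, was at 2.46, 4.69 and 3.78 log2 units with cisplatin in UWB1.289, PEO1 and JHOS-2, against 4.44, 6.81 and 4.90 untreated. The other lines changed between -0.77 and 0.50, so all 3 BRCA-mutant lines, at -1.98, -2.11 and -1.12, lay below all 25. ST8SIA6 was chosen by this difference, so the lack of overlap is no separate support. How many of all genes show no overlap is not given here. Untreated, the other lines had a median of 3.51 log2 units (2.51 to 8.44), so many of them had little room for a fall. The difference was -1.60 ± 0.23 log2 units (SE, limma adjusted p = 0.00122), -1.43 within batch 4 and -1.90 within batch 5.

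SLC2A12 encodes the glucose transporter GLUT12. It was at 6.58, 5.58 and 6.14 log2 units with cisplatin in UWB1.289, PEO1 and JHOS-2, against 8.52, 7.48 and 7.80 untreated, and the 3 changes of -1.94, -1.90 and -1.66 were the most alike of the 5 genes. The change in the other lines had a median of -0.21 (-1.70 to 1.07), and 21 of the 25 were lower. The difference was -1.66 ± 0.31 (SE, limma adjusted p = 0.0368), -1.65 within batch 4 and -1.66 within batch 5.

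GNAO1, the alpha subunit of the G protein Go, was at 5.47, 5.51 and 4.82 log2 units with cisplatin in UWB1.289, PEO1 and JHOS-2, against 7.94, 7.10 and 5.07 untreated. Its change was -2.47, -1.58 and -0.25, and the other lines lay between -0.50 and 0.72, so JHOS-2 was within their range. The difference was -1.44 ± 0.25 (SE, limma adjusted p = 0.0102), -0.87 within batch 4 and -2.43 within batch 5, and it was -0.87 without UWB1.289 and short of the threshold.

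None of the 5 differences passed without UWB1.289 (0 genes by limma, 483 at an unadjusted p under 0.05), and 1 gene, not among the 5, passed without PEO1. Without JHOS-2, 8 genes passed, 3 of them among the 5. With each line's changes centred on its median, 4 genes passed, 0 higher and 4 lower, and with the arrays quantile normalized again 2 passed, 0 higher and 2 lower. In a fit that ignored the pairing of arrays by line, 0 genes passed limma for the difference (165 at an unadjusted p under 0.05) and 0 for the mean of the 3 lines (283).

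**Figure D4:**
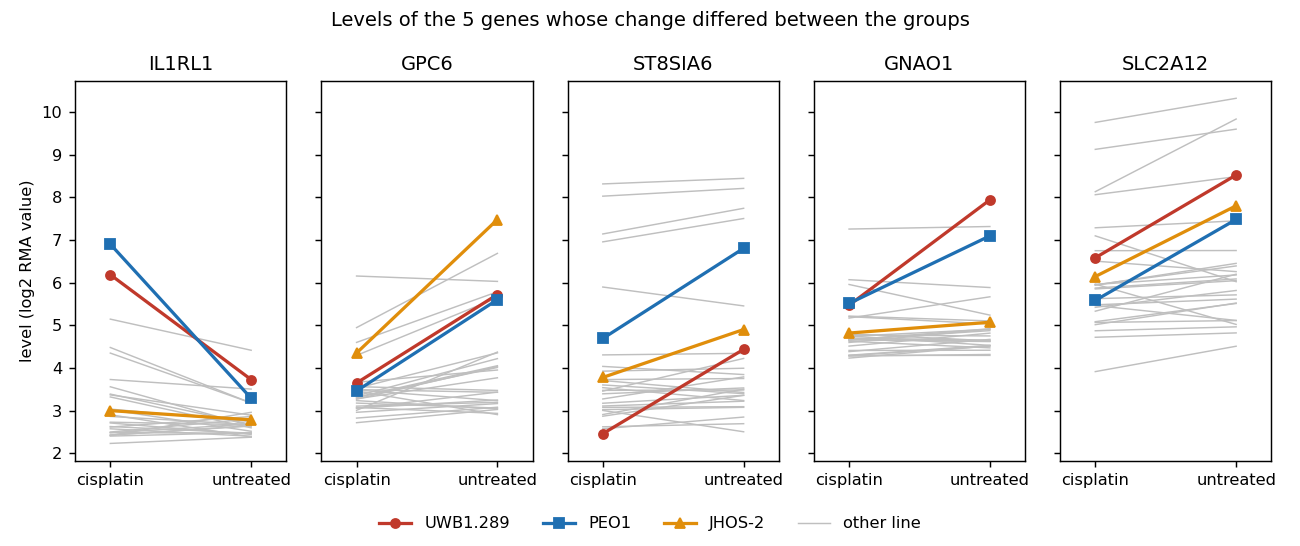
Levels in log2 RMA units with cisplatin (left) and untreated (right) of the 5 genes whose change differed between the groups, 1 line per cell line, with the BRCA-mutant lines coloured and the other lines grey. GPC6 and SLC2A12 are lower with cisplatin in all 3 coloured lines, and GNAO1 moved little in JHOS-2 (-0.25).

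Before treatment 4 genes (0.0217%) differed in level between the groups by limma, all higher in the BRCA-mutant lines, with 1192 genes at an unadjusted p under 0.05. FAT3, an atypical cadherin, was at 5.50, 4.85 and 4.92 log2 units in untreated UWB1.289, PEO1 and JHOS-2, against a median of 3.21 (2.79 to 3.98) in the other lines, so the groups did not overlap. The difference was 1.96 ± 0.15 (SE, limma adjusted p = 6.14e-09). NEGR1, a neuronal adhesion protein, was at 8.61, 8.09 and 8.64, against a median of 4.17 (3.68 to 7.49), and the guanine exchange factor TIAM2 was at 7.74, 7.15 and 6.58, against a median of 4.61 (3.78 to 5.97). The groups did not overlap for these genes either. All were chosen by this difference in the same arrays, so the lack of overlap is no separate support. How many of all genes show no overlap is not given here. RAB19, a small GTPase, was 0.99 ± 0.16 log2 units higher in the BRCA-mutant lines (limma adjusted p = 0.00467). Without UWB1.289, FAT3 and NEGR1 still passed, while TIAM2 (limma adjusted p = 0.231) and RAB19 (0.0743) did not. With cisplatin FAT3 and NEGR1 were among the 38 genes that fell, NEGR1 being at 5.75, 7.15 and 7.89 log2 units in treated UWB1.289, PEO1 and JHOS-2.

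BRCA1 itself was at 6.53, 8.22 and 7.71 log2 units in treated UWB1.289, PEO1 and JHOS-2, against 6.30, 7.89 and 7.67 untreated. Its transcript was thus lowest in UWB1.289 and moved by at most 0.33 in any of the lines (mean 0.20 ± 0.48, limma adjusted p = 0.986). Its partner BARD1 changed by -0.31, 0.20 and 0.16, and PALB2, which bridges BRCA1 and BRCA2, by -0.07, 0.80 and 0.64. BRCA2 was not analysed here.

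No gene of the repair lists passed the threshold in the mean of the 3 lines. Only 0.255% of all genes did, so a short list, here and below, would hold few or none in any case. In the homologous recombination list 0 of 25 members passed by limma, and 2 had an unadjusted p under 0.05, where 8.77% of all genes (1615) did. In all 3 lines 10 members were higher and 5 lower (18.7% and 16.3% of all genes), and 3 rose in the other lines (1.27% of all genes). RAD51B, a recombinase paralogue and a long gene, was at 4.38, 4.41 and 5.05 log2 units with cisplatin in UWB1.289, PEO1 and JHOS-2, against 5.75, 5.28 and 5.81 untreated (mean -1.0 ± 0.26, limma adjusted p = 0.0976). XRCC2, another paralogue, changed by 0.23, 1.18 and 0.88. The 2 paralogues thus differed in sign in each line. The Fanconi anaemia list had 0 of 12 members past the limma threshold (1 unadjusted) and medians of -0.09, 0.26 and 0.08 in UWB1.289, PEO1 and JHOS-2. Translesion synthesis had 0 of 9 (0 unadjusted), with POLH, the polymerase that bypasses cisplatin links, at -0.32, -0.38 and -0.27. For 53BP1 and its partners, which restrain resection, 0 of 8 passed (0 unadjusted), and TP53BP1 changed by -0.26, -0.02 and -0.23. PARP1 changed by 0.07, 0.32 and 0.22, and POLQ, the polymerase of theta-mediated end joining, by -0.26, 0.87 and 0.04.

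Of the p53 targets none of 31 passed by limma in the mean of the 3 lines (0, with 6 at an unadjusted p under 0.05, against 8.77% of all genes), while 8 of 31 rose in the mean of the other lines (1.27% of all genes). The list's median change was 0.02 in UWB1.289, -0.04 in PEO1 and -0.02 in JHOS-2, against 0.14 in the median other line (range -0.33 to 1.14), at ranks 22, 24 and 23 of 28. CDKN1A (p21), the cell-cycle inhibitor, changed by 0.34, 0.61 and 0.23. MDM2, the ligase that degrades p53, changed by -0.05, -0.13 and -0.52, and GDF15, a stress cytokine, by -0.41, -0.35 and 0.17. FAS, the death receptor, changed by -0.07, -0.23 and -0.56. GADD45A, which also responds to other stress, changed by 0.60, 1.83 and 1.11 (mean 1.18 ± 0.37, limma adjusted p = 0.187). Of the whole list, 10 members were higher and 10 lower in all 3 lines, against 18.7% and 16.3% of all genes. The difference between the groups passed for 0 of the 31 by limma, with 3 at an unadjusted p under 0.05, against 4.45% of all genes.

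Immediate early genes, which cells switch on within minutes of a stimulus, were higher in all 3 lines for 12 of 18 members and lower in all 3 for 0, where 18.7% of all genes were higher in all 3. None passed the limma threshold (0, with 8 at an unadjusted p under 0.05, against 8.77% of all genes), and 8 of 18 rose in the other lines (1.27% of all genes). Their median change was 0.50 in UWB1.289, 0.75 in PEO1 and 0.49 in JHOS-2, against 0.26 in the median other line. EGR1, a zinc-finger activator, was at 6.40, 8.24 and 9.14 log2 units with cisplatin in these lines, against 5.76, 6.54 and 7.88 untreated. HBEGF, a ligand of the EGF receptor, changed by 2.10, 2.65 and 0.30. ATF3, a stress-induced factor of the same DNA-binding family as CREB, changed by 0.47, 1.12 and 1.22, so that JHOS-2 was the highest of the 3 for ATF3 and the lowest for HBEGF.

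NF-kB targets were higher in all 3 lines for 12 of 24 members and lower for 1. Over all genes 18.7% were higher and 16.3% lower in all 3. By limma 0 passed in the mean of the 3 lines, with 12 at an unadjusted p under 0.05 (8.77% of all genes), and 6 rose in the other lines (1.27% of all genes). PEO1 had the largest changes. CXCL8, the neutrophil chemokine, was at 10.27, 11.28 and 6.48 log2 units with cisplatin in UWB1.289, PEO1 and JHOS-2, against 9.26, 7.75 and 5.68 untreated. IL6 was at 8.72, 11.19 and 7.95, against 8.91, 8.33 and 5.66, a rise of over 2 log2 units in PEO1 and JHOS-2 and a change of -0.19 in UWB1.289. TNFAIP3 (A20), the feedback inhibitor of the pathway, changed by 0.95, 2.52 and 1.19. The list's median was 0.59, 0.91 and 0.23 in UWB1.289, PEO1 and JHOS-2, with ranks of 7, 2 and 14 of 28.

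Interferon-stimulated genes differed in direction between PEO1 and UWB1.289. The median change of the 26 measured members was -0.34 in UWB1.289, the lowest of the 28 lines, 0.72 in PEO1, the highest, and -0.10 in JHOS-2, at rank 25, against 0.14 in the median other line (range -0.21 to 0.56). RSAD2 (viperin), an antiviral enzyme, was at 4.38, 7.06 and 3.95 log2 units with cisplatin in UWB1.289, PEO1 and JHOS-2, against 5.90, 5.12 and 4.05 untreated. IFI44L was at 8.47, 4.79 and 3.35, against 9.59, 3.19 and 3.31. HERC5, the ligase that attaches ISG15, changed by -0.76, 2.13 and 0.39, and DDX60, a helicase, by -1.57, 1.15 and -0.37. Untreated UWB1.289 thus held the highest IFI44L and RSAD2 of the 3 lines, and with cisplatin PEO1 held the highest RSAD2. With 1 array per arm these line values have no replicate, and 0 of 26 passed in the mean of the 3 lines by limma (0 at an unadjusted p under 0.05).

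**Figure D5:**
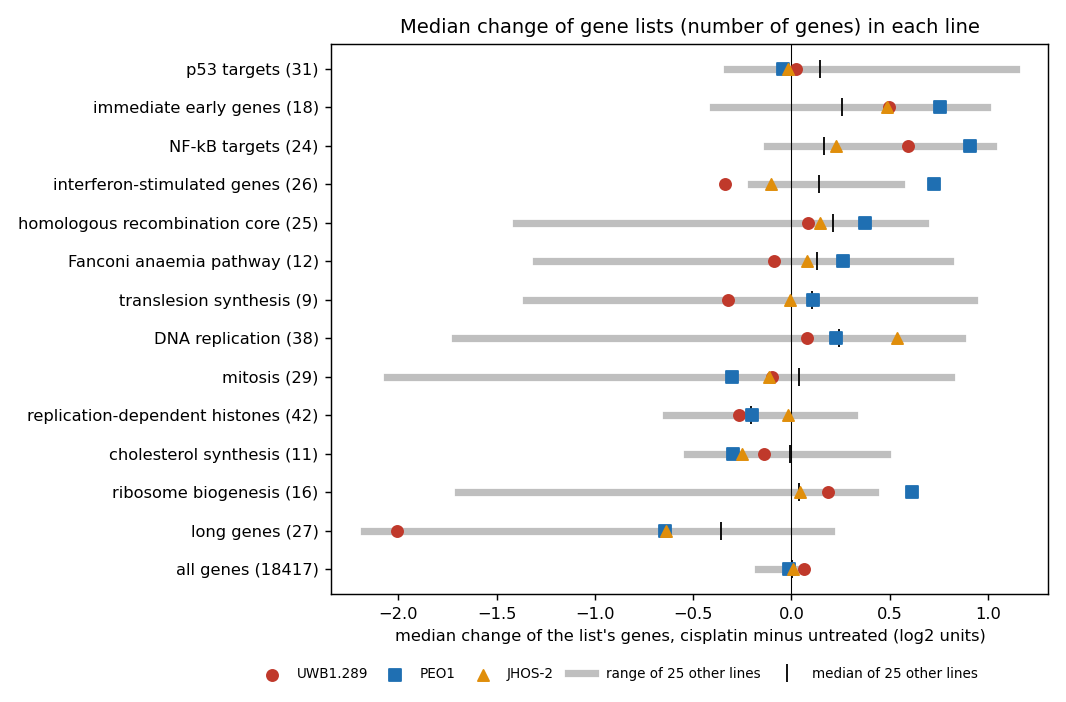
Median cisplatin change of the genes of 13 lists and of all genes in each BRCA-mutant line (coloured symbols), with the range (grey bar) and median (tick) of the 25 other lines, in log2 units. The p53 targets lie near 0 in all 3 lines, and the interferon-stimulated genes lie outside the range of the other lines in PEO1 (0.72) and UWB1.289 (-0.34).

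Genes of replication and division differed between the lines. DNA replication genes had medians of 0.08 in UWB1.289, 0.23 in PEO1 and 0.54 in JHOS-2, and 18 of 38 were higher in all 3 (18.7% of all genes). By limma 0 of them passed, and 2 had an unadjusted p under 0.05 (8.77% of all genes). Mitotic genes had medians of -0.10, -0.30 and -0.11. PLK1, a mitotic kinase, was at 8.83, 6.26 and 7.43 log2 units with cisplatin in UWB1.289, PEO1 and JHOS-2, against 8.82, 8.31 and 7.82 untreated. BUB1, a checkpoint kinase, was at 9.57, 6.98 and 8.17, against 9.75, 8.88 and 8.30. Both were at least 2-fold lower in PEO1 and not in the other two, and 0 of 29 mitotic genes passed in the mean by limma (0 unadjusted). Cholesterol synthesis genes were lower in all 3 lines for 8 of 11 members and higher for 0, against 16.3% of all genes lower in all 3, with INSIG1 at -0.42, -0.79 and -0.71. By limma 0 of 11 passed (1 unadjusted), and 1 fell in the other lines. Housekeeping genes had medians of -0.01, -0.36 and -0.34 in UWB1.289, PEO1 and JHOS-2, at ranks 11, 27 and 26 of 28; their part in the small falls of PEO1 and JHOS-2 was not tested. Ribosome biogenesis genes had medians of 0.19, 0.61 and 0.04, that of PEO1 being the highest of 28, and 0 of 16 passed by limma (1 unadjusted).

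UWB1.289 had its largest rises in ESM1, a secreted proteoglycan, with 6.08 log2 units with cisplatin against 2.54 untreated, in the protease inhibitor PI3 (9.42 against 6.15) and in DKK1, a secreted WNT inhibitor (8.25 against 5.35). Its largest falls were in ATP6V0D2, a proton pump subunit, with 3.57 against 8.41, in the adhesion protein CNTN4 (2.72 against 7.01) and in NAALADL2 (3.83 against 7.99). ATP6V0D2 was near the floor in both arms of PEO1 and JHOS-2, at 2.06 to 2.71.

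PEO1 had its largest rises in IL1RL1, CXCL8, KMO, an enzyme of tryptophan breakdown, CXCL2 and IL12A, a subunit of interleukin-12. KMO was at 5.85 log2 units with cisplatin and 2.42 untreated, CXCL2 at 7.71 and 4.39, and IL12A at 7.39 and 4.31. Its largest falls were in BBS9, CDH6, ARL15, the scaffold BANK1 (3.36 against 5.85) and IGFBP5, which binds insulin-like growth factors (4.24 against 6.68). The falls of BBS9, CDH6 and ARL15 also passed in the mean of the 3 lines.

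JHOS-2 had its largest rises in SAA1, an acute-phase protein, with 6.88 log2 units with cisplatin against 4.41 untreated, and in IL6, IL7R (6.63 against 4.52), COXFA4L3 and the chemokine CCL20 (5.22 against 3.50). SAA1 was lower with cisplatin in UWB1.289 and PEO1, by 0.43 and 0.34 log2 units. Its largest falls were in GPC6, SLC8A1, ASB8 (5.43 against 7.65), ARHGEF6 (3.41 against 5.62) and SESN3, a sestrin of the stress response (6.52 against 8.64). SESN3 changed by 0.49 in UWB1.289 and 0.62 in PEO1, so JHOS-2 differed from both in sign. These values rest on 1 array per arm and carry no p-value.

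Of 22 epithelial and serous carcinoma markers, 9 were lower and 1 higher in all 3 lines (16.3% and 18.7% of all genes), and 0 passed by limma (5 unadjusted, against 8.77% of all genes). KRT19 was at 6.24, 7.72 and 8.36 log2 units with cisplatin in UWB1.289, PEO1 and JHOS-2, against 6.65, 9.80 and 9.36 untreated (mean -1.16 ± 0.29, limma adjusted p = 0.0763). SPINT2, a protease inhibitor of epithelia, changed by -0.65, -0.81 and -0.99, and EPCAM by -0.18, -0.16 and 0.14. TNFSF10 (TRAIL), a death ligand, was at 6.83, 6.35 and 7.62 with cisplatin, against 8.6, 8.23 and 8.53 untreated (mean -1.52 ± 0.39, limma adjusted p = 0.0900), and the other lines had a mean change of -0.21. SLFN11, whose loss is known to accompany resistance to platinum, was at 2.79, 6.66 and 6.03 log2 units in untreated UWB1.289, PEO1 and JHOS-2, lowest in UWB1.289. ABCB1, a drug efflux pump, was at 3.59, 3.31 and 3.88 log2 units untreated.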

How the data were processed

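Expression was measured on Affymetrix arrays. The authors deposited log2 values for 33297 probe sets on 171 arrays; the submitters' processing notes name RMA and no version. RMA corrects background, quantile normalizes and summarises probes. Arrays carry no read depth, so the number of lines limits the precision, and no detection call was used.

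The probe set with the highest mean among those with 1 symbol stood for each of 18417 genes, and symbols were updated through RefSeq (GRCh38.p14), which also gave gene lengths. The log2 difference, cisplatin minus untreated, was taken within each of 28 lines, so arrays were paired by cell line as the labels give it. With R 4.3.3, limma 3.58.1 (lmFit, eBayes) fitted group and batch to the differences and to the untreated levels, with Benjamini-Hochberg adjustment over all genes at 0.05. The code was tested on simulated data.

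Named were up to 10 genes per direction past the threshold with the largest mean change, the same for the difference, the 5 largest changes per line and direction, up to 4 members per list, a fixed set, and the genes past the threshold in untreated level. Any other gene was named after its values were seen. The lines, lists and alternatives were chosen with earlier results of these data known.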

Additional observations from a re-analysis of the deposited data

Results flagged for a closer look

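The change under cisplatin differed between the BRCA-mutant and the other lines, by a limma test of the difference itself, for 5 genes: by 1.95 log2 units for IL1RL1, -2.05 for GPC6, -1.60 for ST8SIA6, -1.44 for GNAO1 and -1.66 for SLC2A12. None of the 5 passed without UWB1.289 or without PEO1. For IL1RL1 and GNAO1, JHOS-2 lay within the range of the other lines.

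Among the 27 sets of line values examined for a sample that stands apart, where chance alone gives about 1 in 20, the line OAW42 stood apart from the other lines of batch 4 for 2 genes. BARD1 changed by 1.38 log2 units in OAW42, and by -0.35 to 0.39 in the rest. ABCB1 changed by 1.72 log2 units in OAW42, and by -0.22 to 0.50 in the rest. Neither value belongs to a BRCA-mutant line.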

How the results depend on the processing

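For the mean change of the 3 BRCA-mutant lines, 47 genes passed limma's threshold, and for the difference from the other lines 5. Ignoring the pairing of arrays by line (no block) gave 0 and 0, with 283 and 165 genes at an unadjusted p under 0.05. Leaving out 1 of the 3 lines gave 10 to 41 (8 to 26 of them among the 47) and 0 to 8. All 46 lines gave 377 and 14, batch 4 alone 97 and 4, array weights 473 and 13, and leaving out Hey, added after the data were seen, 111 and 5. Fewer passed with genes above the overall median level alone (15 and 0, with 1002 and 376 unadjusted), a trended robust prior (19 and 2) or a minimum of 1.2-fold (6 and 1). Arrays quantile normalized again gave 37 and 2. The untreated level called 4 genes, 0 among brighter genes (554 unadjusted), 5 after quantile normalization (4 higher, 1 lower) and 5 to 14 without 1 of the lines, with TIAM2 and RAB19 lost without UWB1.289. The cause of these shifts was not tested. The difference in response size stayed short of the threshold in each of its 5 alternatives, at 28.6 to 376 genes. Without Hey it was 267, and batch 5 alone gave 199.9 in place of -186. Over the named genes' alternatives, direction was kept in all: 315 stayed on the same side of the threshold, 145 no longer passed and 5 newly passed. The 315 include results that were short of the threshold at first and stayed so, such as GAL, KCNV1 and GMFG for the difference.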
